A study of Mus musculus with 2 samples.

Results

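The genes described here are 35 targets of the hypoxia-inducible factors (HIF), taken by name from a list of known targets that leaves out core glycolysis, collagen hydroxylation and the carbonic anhydrases. They were read from 2 Affymetrix mouse arrays, each from 1 stably transfected clone of LM8, a mouse osteosarcoma cell line. The hPHD4 clone carried a full-length cDNA of human PHD4 in pcDNA3.1, and the control clone carried pcDNA3.1 with no insert. Both clones were selected in 0.5 mg/ml G418. Every group is therefore a single clone on a single array. There is no replicate check and nothing could be tested, and differences between clones as such cannot be told apart from the effect of the transgene. Of the 12393 genes with a probe set of their own, 32 were among the 35 targets, on 64 probe sets. A probe set was taken as measured above a floor on both arrays, at linear signals of 81.1 (hPHD4) and 67.8 (control). By that criterion 29 targets had a value, on 50 probe sets.

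HIF is a transcription factor made of an oxygen-labile alpha subunit and the constant partner ARNT. When oxygen is present, prolyl hydroxylases of the PHD (EGLN) family mark the alpha subunit for VHL-dependent degradation; in hypoxia it persists, binds hypoxia response elements and raises genes of glucose uptake, mitochondrial restraint, vessel tone and chromatin demethylation. PHD4 (mouse gene P4htm) is a related hydroxylase of the endoplasmic reticulum membrane, and the comparison asked how cells with the human enzyme differ from control cells. The labels do not state the oxygen tension of the cultures. The array held 0 probe sets assigned to P4htm alone, so the introduced gene could not be followed and the clone labels were not checked against it.

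The core of the hypoxia response element is 5 bases long, ACGTG or GCGTG. Those letters were searched on both strands, so that CACGT and CACGC count too, in RefSeq windows of assembly GRCm38.p6 that run from 250 bases before to 50 bases after an annotated gene start. The table held 38 windows for 28 of the 35 targets. Stretches of 150 bases that end just before the start are shown for 3 targets with positive and 3 with negative ratios, the ones farthest to either side among measured targets with a match in such a stretch. They were chosen with the values known, and they show how the element's letters lie upstream of targets on both sides. Capitals mark the matches, and each sequence reads 5′ to 3′ on the strand of its gene. In this assembly they lie at chr11:121237086-121237235 on the plus strand for Narf, chr11:79254696-79254845 (minus) for Wsb1, chr2:71873074-71873223 (plus) for Pdk1, chr7:110627507-110627656 (plus) for Adm, chr16:36071562-36071711 (minus) for Fam162a and chr10:59951771-59951920 (minus) for Ddit4.
Narf: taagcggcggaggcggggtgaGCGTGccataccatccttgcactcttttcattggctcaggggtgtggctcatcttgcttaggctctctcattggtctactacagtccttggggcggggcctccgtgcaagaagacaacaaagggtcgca
Wsb1: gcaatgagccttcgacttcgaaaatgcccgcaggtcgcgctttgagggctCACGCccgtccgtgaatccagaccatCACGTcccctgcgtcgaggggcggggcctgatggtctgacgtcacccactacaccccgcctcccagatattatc
Pdk1: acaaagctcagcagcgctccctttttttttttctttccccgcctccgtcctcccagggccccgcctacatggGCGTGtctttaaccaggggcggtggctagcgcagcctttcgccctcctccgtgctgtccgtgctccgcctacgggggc
Adm: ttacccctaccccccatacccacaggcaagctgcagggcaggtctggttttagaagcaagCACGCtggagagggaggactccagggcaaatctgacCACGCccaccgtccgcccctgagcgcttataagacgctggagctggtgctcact
Fam162a: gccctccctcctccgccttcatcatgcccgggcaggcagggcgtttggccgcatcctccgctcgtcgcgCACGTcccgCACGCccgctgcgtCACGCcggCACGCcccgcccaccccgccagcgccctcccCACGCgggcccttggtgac
Ddit4: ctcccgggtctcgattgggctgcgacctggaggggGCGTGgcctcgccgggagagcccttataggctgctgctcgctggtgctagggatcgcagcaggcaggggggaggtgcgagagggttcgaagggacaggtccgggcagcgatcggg

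Of the 6 stretches, Fam162a held the most matches, 5, although its signal was lower in the hPHD4 clone. Narf and Pdk1, on the higher side, held 1 match each, as did Ddit4 on the lower side. Over the full windows, 25 of 28 targets (89.3%) had a match in at least 1 window, and Gys1, Gbe1 and Vldlr had none. The 28 include targets that were not measured on the arrays. Of the measured ones, 20 had a match and 3 had none. Among all 6144 measured genes in the table the share was 70.4%, and among all 27025 genes 46.7%. Some targets have several annotated starts (7 of 28), so the share per window is given as well: 71.1% of the 38 target windows, 64.2% of the 7933 windows of measured genes and 43.8% of all 32851 windows. The median GC content was 62.2% in the target windows, 61.3% in those of measured genes and 52.7% in all, and its part in these shares was not tested. The 20 measured targets with a match had a median log2 ratio of 0.09 and spanned −0.33 to 0.64. The 3 without one had a median of 0.00 and spanned −0.18 to 0.24. The second range lies inside the first. A match describes letters in a window and is no measure of HIF binding.

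**Figure D1:**
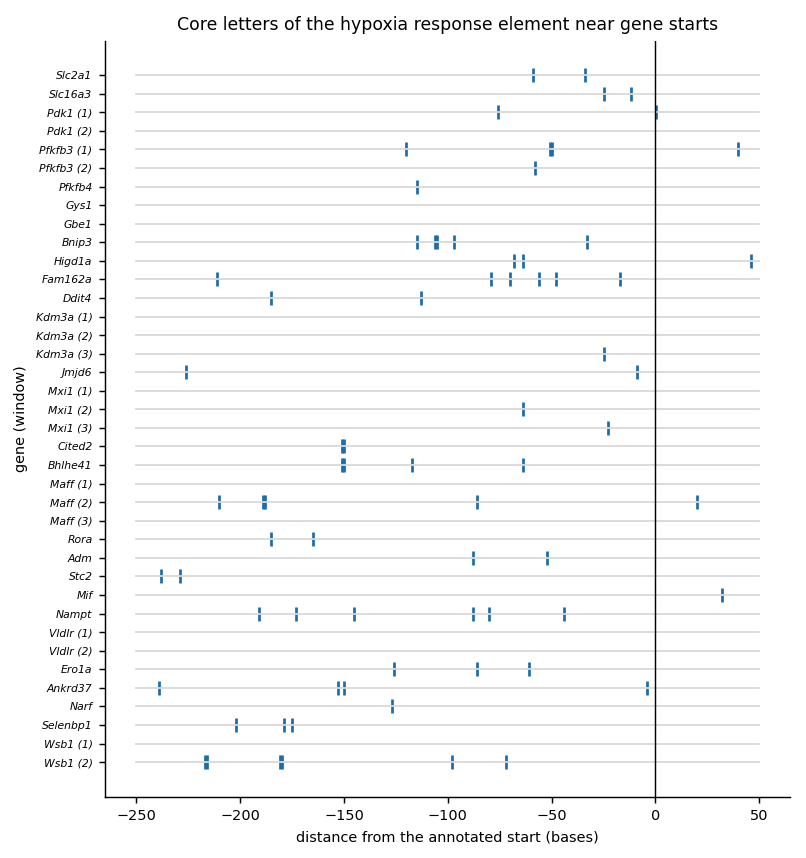
Positions of the core letters ACGTG or GCGTG, on either strand, in the 38 promoter windows of 28 HIF target genes. The horizontal axis is the distance from the annotated gene start in bases, each grey line is 1 window and each tick 1 match; a number in brackets tells windows of 1 gene apart. Matches were found in 27 of the 38 windows, and most lie upstream of the start.

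On the arrays the targets lay close to equality between the clones. Signals are linear MAS5 values, a pair such as 304 against 266 gives the hPHD4 clone first and the control clone second, and a ratio is log2 of the first over the second. Their median log2 ratio, hPHD4 clone over control clone, was 0.08, next to 0.03 over all 7452 measured genes, and 27 of 29 stayed within 1.5-fold of the control clone (93.1%, against 85.8% of all measured genes). Narf was the only target higher by 1.5-fold or more, 1 of 29, where 8.94% of all measured genes were. Angptl4 was the only one lower by that much, again 1 of 29, against 5.22% of all measured genes. At a 2-fold threshold 0 targets passed in either direction, while 1.89% of measured genes were at least that much higher and 0.98% at least that much lower. Ratios above 0 were held by 19 of 29 targets (65.5%), with a background of 53.6%. With dim probe sets kept and raised to a common floor, the median over 32 targets was 0.05, against 0.00 for all 12393 genes. Probe sets under that floor on both arrays get a ratio of exactly 0. That ties many genes at 0, so these 2 medians are no measure of a difference. Above 0 were then 62.5% of the targets and 36.9% of all genes. A gene tied at 0 cannot count as above it, so these shares are no measure of a difference either.

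The spread of the targets was no wider than that of other genes. The middle of their distribution, between the quartiles, ran from −0.11 to 0.37, and that of all measured genes from −0.20 to 0.29. The only available measure of error was how far probe sets of 1 gene disagreed. Pooled over 2800 genes, the SD of their log2 ratios was 0.40, 0.37 and 0.28 in the dim, middle and bright classes, 3 equal classes of genes by mean signal. It speaks for single probe sets, not for variation among clones, cultures or labelling reactions. Means over several probe sets were set beside the same SD, undivided, so for them it is a wide measure. The ratios of 12 targets were larger than the SD of their class (41.4%), and so were those of 35.5% of all measured genes. Across the 14 targets with 2 or more measured probe sets, the pooled SD between their own probe sets was 0.29, while 15 targets rested on 1 probe set. In 8 of the 14 all probe sets had the same sign, above 0 in Slc2a3, Pdk1, Pfkfb3, Higd1a, Ndrg1 and Jmjd6 and below 0 in Mxi1 and Ero1a. The matching share over the 2800 genes is not given here, so this count says nothing particular about the targets.

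**Figure D2:**
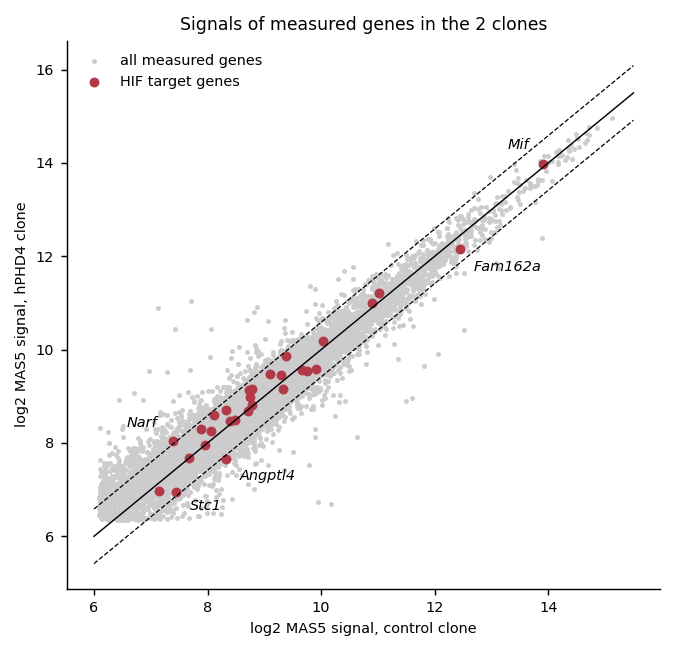
Log2 MAS5 signal of each measured gene in the control clone (horizontal) and the hPHD4 clone (vertical), with the 29 measured HIF targets in red and all 7452 measured genes in grey. The solid line marks equal signal and the dashed lines 1.5-fold; Narf lies above the upper and Angptl4 below the lower dashed line, and the other 27 targets lie between them.

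The 3 genes of glucose and lactate transport had ratios above 0, as did 53.6% of all measured genes, and none was past 1.5-fold. Slc2a1, encoding the glucose transporter GLUT1, had mean signals of 712 (hPHD4 clone) and 548 (control clone), a log2 ratio of 0.38 (1.30-fold higher). Its 3 probe sets disagreed, with signals of 1148 against 583, of 684 against 546 and of 460 against 516, so that 2 were higher in the hPHD4 clone and 1 lower, and their SD of 0.57 exceeded the 0.37 of their class. Slc2a3, encoding the high-affinity transporter GLUT3, had the same mean ratio of 0.38, with all 3 measured probe sets higher, at 1559 against 939, 463 against 409 and 100.3 against 85.2. The widest gap again came from the brightest probe set, at 0.73. Slc16a3 encodes MCT4, which exports the lactate of glycolytic cells, and its single probe set read 304 against 266, a ratio of 0.19 that is smaller than the SD. The related transporters Slc2a1 and Slc2a3 thus had the same average difference, carried in each by 1 probe set more than by the others.

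Of 4 measured enzymes that set the fate of glucose 3 had ratios above 0, as did 53.6% of all measured genes, and none was past 1.5-fold. Pdk1 encodes the kinase that inactivates pyruvate dehydrogenase and keeps pyruvate out of the citrate cycle. It read 841 against 517 on 1 probe set and 1038 against 859 on the other, for a log2 ratio of 0.49 (1.40-fold higher), above the SD of 0.28 for genes as bright. Pfkfb3, whose product makes the activator of phosphofructokinase, read 505 against 374 and 195 against 148. Its probe sets had ratios of 0.43 and 0.40, among the closest of any target, and the mean of 0.42 lay just above the SD of 0.37. Glycogen genes were less clear. Gys1, the muscle-type glycogen synthase gene, had a ratio of 0.24 from probe sets of opposite sign, 701 against 474 and 364 against 385. Gbe1, encoding the branching enzyme, was dim, at 125 against 142, a ratio of −0.18. Both glycogen genes stayed within the SD between probe sets.

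Targets that act on mitochondria had small ratios of either sign. Bnip3, a mitophagy receptor of the outer membrane and a well-known HIF target, read 2037 against 1898 (hPHD4 against control), a log2 ratio of 0.10. Higd1a, a small inner-membrane protein of the respiratory chain, read 3755 against 3360 and 358 against 328, a ratio of 0.14. Neither exceeded the SD of 0.28. Fam162a, a mitochondrial protein linked to hypoxic cell death, lay on the other side, at 4552 against 5548, a ratio of −0.29 that was just beyond that SD. Bnip3l, the paralogue of Bnip3, was not analysed because its 3 probe sets are assigned to Bnip3l and a pseudogene together.

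Among stress-control genes, Ndrg1 and Ddit4 pointed apart. Ndrg1, a growth-restraining gene induced by hypoxia and iron depletion, had 5 probe sets, all higher in the hPHD4 clone, with log2 ratios from 0.11 to 0.34 and a mean of 0.20 (SD 0.10 between probe sets). The mean was smaller than the 0.28 of the bright class, although no probe set lay below 0. That 0.28 is the SD of single probe sets, not of a mean over 5. Ddit4 encodes REDD1, an inhibitor of mTORC1, and read 766 in the hPHD4 clone against 961 in the control clone, a ratio of −0.33 (1.25-fold lower) on 1 probe set.

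The 7 measured chromatin and transcription factors among the targets differed by at most 1.32-fold. The oxygen-dependent histone demethylase genes Kdm3a and Kdm4b had ratios of 0.08 (355 against 335) and 0.01 (206 against 204), and Jmjd6, a related lysine hydroxylase gene, of 0.15 on probe sets at 0.09 and 0.22. All 3 were within the SD. Bhlhe40, a transcriptional repressor induced by HIF, was at 565 against 427, a ratio of 0.40. Cited2, which competes with HIF for the coactivator p300 and so limits the response, was at 572 against 441, a ratio of 0.37. These were the only genes of the group beyond the SD, each on 1 measured probe set. A second probe set of Cited2 lay under the floor in the hPHD4 clone and above it in the control clone, at 69.3 against 94.9, which is at least 1.17-fold in the opposite direction, and under a lower floor (20th percentile) Cited2 had a ratio of −0.04. Mxi1, an antagonist of Myc, had a ratio of −0.11. The nuclear receptor gene Rora was at 0.00, from probe sets at −0.20 (191 against 220) and 0.20 (322 against 280). A further Rora probe set exceeded the floor only in hPHD4 cells, at 82.3 against 54.9, a bound of at least 1.21-fold higher.

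Secreted factors and the receptor Vldlr lay on both sides of 0, with 3 of 6 measured genes below it, where 53.6% of all measured genes lay above it. The 3 include the lowest ratios of all 29, those of Angptl4 and Stc1. Angptl4, an inhibitor of lipoprotein lipase that is also induced through PPAR receptors, had signals of 203 against 319 (−0.65, or 1.57-fold lower, against an SD of 0.40). It rested on 1 probe set, and its other probe set lay under the floor in both clones. Stc1, the hormone stanniocalcin-1, was 1.40-fold lower on its measured probe set, at 124 against 174. The other Stc1 probe set pointed the opposite way: it was above the floor at 101.1 in the hPHD4 clone and under it at 5.32 in the control clone, at least 1.49-fold higher. The direction of Stc1 is therefore unsettled. Adm, encoding the vasodilator peptide adrenomedullin, read 746 against 866, a ratio of −0.21 and within the SD of 0.28.

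The cytokine gene Mif and the NAD-salvage enzyme gene Nampt differed little, with ratios of 0.07 (16244 against 15457) and 0.03 (1462 against 1466 and 139 against 132). Processed copies of Mif exist in the genome, so its signal may not be of that gene alone. Vldlr, a lipoprotein receptor, averaged 0.00 over 3 measured probe sets that did not point one way, at −0.52, 0.11 and 0.41, an SD of 0.47 against 0.37. The brightest of them read 1144 in hPHD4 cells and 1639 in control cells, so the average near 0 hides a disagreement between probe sets.

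Of the remaining targets, Narf had the highest ratio of the list. Its product binds prelamin A, and the single measured probe set read 262 in hPHD4 cells and 168 in control cells (0.64, or 1.55-fold higher, against an SD of 0.40). A second Narf probe set was under the floor in the hPHD4 clone, at 25.2, and above it in the control clone, at 82.3, a bound of at least 1.01-fold in the opposite direction. Under a lower floor (20th percentile) that probe set enters, and Narf turns to −0.54. Wsb1, a SOCS-box subunit of ubiquitin ligases, was at 389 against 276, a ratio of 0.50 (1.41-fold higher) on 1 probe set. Ero1a, the oxidase that drives disulfide formation in the endoplasmic reticulum, was lower on all 3 probe sets, with log2 ratios from −0.26 to −0.10 and a mean of −0.16, smaller than the SD of 0.37. Selenbp1, whose neighbour in sequence Selenbp2 may share its probes, was at −0.01 on probe sets of opposite sign, 379 against 416 and 453 against 421.

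**Figure D3:**
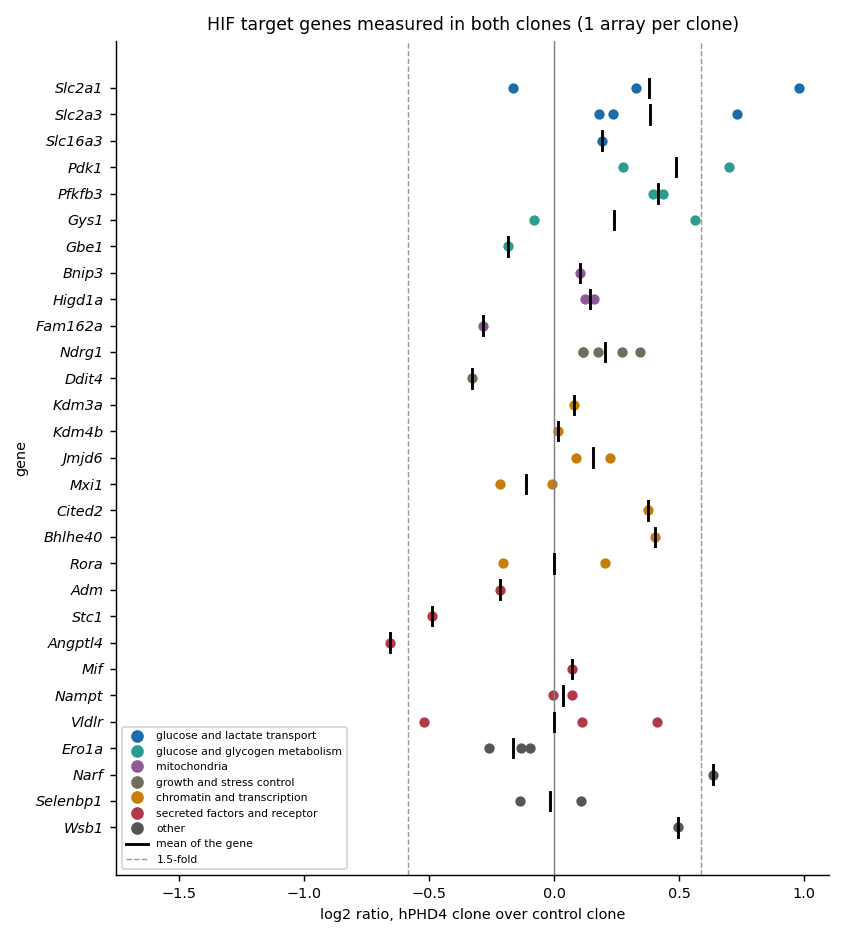
Log2 ratio (hPHD4 clone over control clone) of each measured probe set, as points coloured by the function of the gene, and the mean of each gene, as a black bar, for the 29 measured HIF targets. Dashed lines mark 1.5-fold; the bar of Narf at 0.64 and that of Angptl4 at −0.65 are the only ones beyond them, and Slc2a1 and Vldlr have the widest spread between probe sets.

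For 6 targets there is no value. Pfkfb4 and Ankrd37 had no probe set of their own, and Bnip3l only shared ones. Bhlhe41, Maff and Stc2 were not above the floor in both clones on any probe set. Bhlhe41, the paralogue of Bhlhe40, read 33.0 (hPHD4) and 73.6 (control), and Maff 8.80 and 12.4. Each Stc2 probe set was above the floor in the control clone alone. On 1 of them the signals were 18.7 (hPHD4) and 116.6 (control), a bound of at least 1.44-fold, lower in hPHD4 cells. The other read 65.9 (hPHD4) and 68.8 (control), a log2 ratio of −0.06, and gave no bound. Of 5 pairs of paralogues in the list, only Slc2a1 and Slc2a3 could be compared on both sides.

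The rest of the HIF pathway gave a reference for these values. Of 15 glycolytic HIF targets 11 were measured, at a median log2 ratio of 0.24. Of these, 10 were above 0, as were 53.6% of all measured genes. Past 1.5-fold was 1, the phosphofructokinase gene Pfkp at 0.67, where 8.94% of all measured genes were at least that much higher. Their range of −0.12 to 0.67 overlapped that of the 29 targets, and no test of the difference is possible. Collagen-modifying targets had a median of −0.07 over 5 of 6 genes, with P4ha2 (prolyl hydroxylation of collagen) at −1.11 and Lox (lysyl oxidase) at −0.60. Vascular, iron and pH genes also had a median of −0.07, over 5 of 10 genes, with the transferrin receptor gene Tfrc at 0.66 and the ferroxidase gene Cp at −0.61. Among those without a value, Flt1 was above the floor in hPHD4 cells alone on its brightest probe set (120.9 against 25.7). Car9 was above it in control cells alone (72.0 against 110.1). No bounds are given for these lists. The oxygen sensors and HIF subunits had a median of 0.25 over 8 of 11 genes, and Epas1, encoding HIF-2 alpha, was at 1.14 with signals of 158.6 and 72.1, the latter just over the floor. Genes of the pathway thus lay on both sides of equality, and the widest differences, in Epas1 and P4ha2, were outside the 29 targets.

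**Figure D4:**
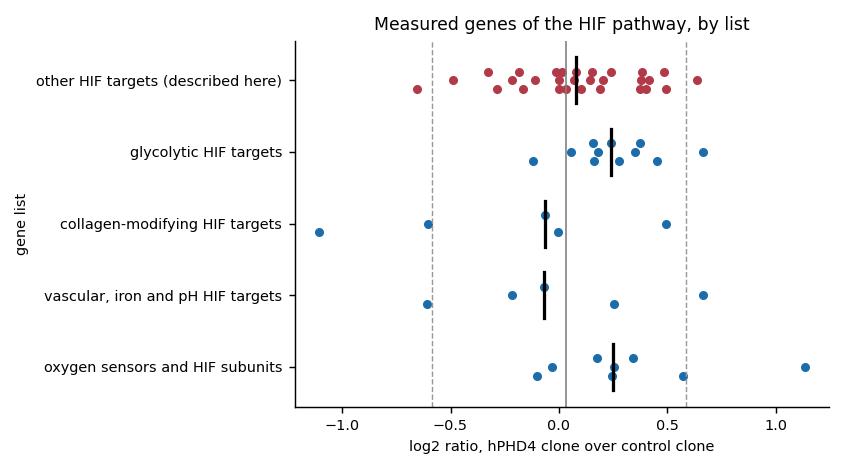
Log2 ratios (hPHD4 clone over control clone) of measured genes in 5 lists of the HIF pathway, with 1 point per gene, black bars at the list medians, a grey line at the median of all measured genes (0.03) and dashed lines at 1.5-fold. The 29 targets described here (red) centre at 0.08 and reach from −0.65 to 0.64, while the glycolytic targets centre at 0.24.

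Markers of the osteoblast lineage, from which an osteosarcoma derives, were present on both arrays. Of 10 osteoblast-lineage markers 7 were measured, and the other 3 had no probe set of their own. Sp7 (3039 against 2588), Alpl (3712 against 3218), Dlx5 (log2 ratio 0.30) and Ibsp (1.09, or 2.13-fold) were on the higher side in the hPHD4 clone. The collagen genes Col1a2 (−0.43, at 12598 against 17021) and Col1a1 (−0.11) and the matrix gene Sparc (−0.20) were on the lower side, and the 7 signals summed to 34356 in hPHD4 cells and 38929 in control cells. The 5 epithelial markers and 4 of 5 endothelial markers were not measured in both clones. Krt8 and Emcn were above the floor in hPHD4 cells alone. The epithelial Krt8 was so on a single one of its 3 probe sets, at 173.1 against 59.4, at least 2.55-fold higher. Krt18, also epithelial, was under the floor in both clones, at 12.1 against 32.8. The endothelial Emcn read 97.7 against 1.92, at least 1.44-fold higher. Of 7 leukocyte markers 5 were measured, with ratios from 0.00 to 0.48 and signals that summed to 682 in hPHD4 cells and 557 in control cells, and Ptprc and Itgam were not. Cd68 (101.0 against 72.2), Adgre1 (84.9 against 84.9) and Lyz2 (108.0 against 79.4) lay near the floors. Csf1r and Laptm5 were each measured on 1 of 3 probe sets. Further probe sets of the leukocyte marker Csf1r pointed apart. One was above the floor in hPHD4 cells alone (113.6 against 58.4, at least 1.68-fold higher) and another in control cells alone (19.8 against 72.1). The part of these markers in the target values was not tested.

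Scaling and map position changed which targets passed 1.5-fold. With each array centred on its median, every gene moved by the same −0.14 on the log2 scale, which took the targets' median from 0.08 to −0.057 and, by construction, left its distance of 0.05 from the median gene as it was. On that scale 13 of 29 targets were above 0 and 38.2% of all genes. Calls past 1.5-fold, 1 higher and 1 lower as given above, became 0 higher and 2 lower (Stc1 and Angptl4) after median centring, quantile normalization or loess correction. Over all genes, the share of such calls that were higher was 63.1% as given, 34.4% after median centring, 50.9% after quantile normalization and 50.7% after loess correction. Genes of chromosome 17, where Angptl4 lies, had a median of −0.17, those of chromosome 11, where Narf and Wsb1 lie, of 0.07, and those of chromosome 19, with Mxi1 and Vldlr, of 0.31. After subtraction of these medians neither Narf nor Angptl4 passed 1.5-fold, and Stc1 did. What the chromosome medians contribute to single genes was not tested.

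**Figure D5:**
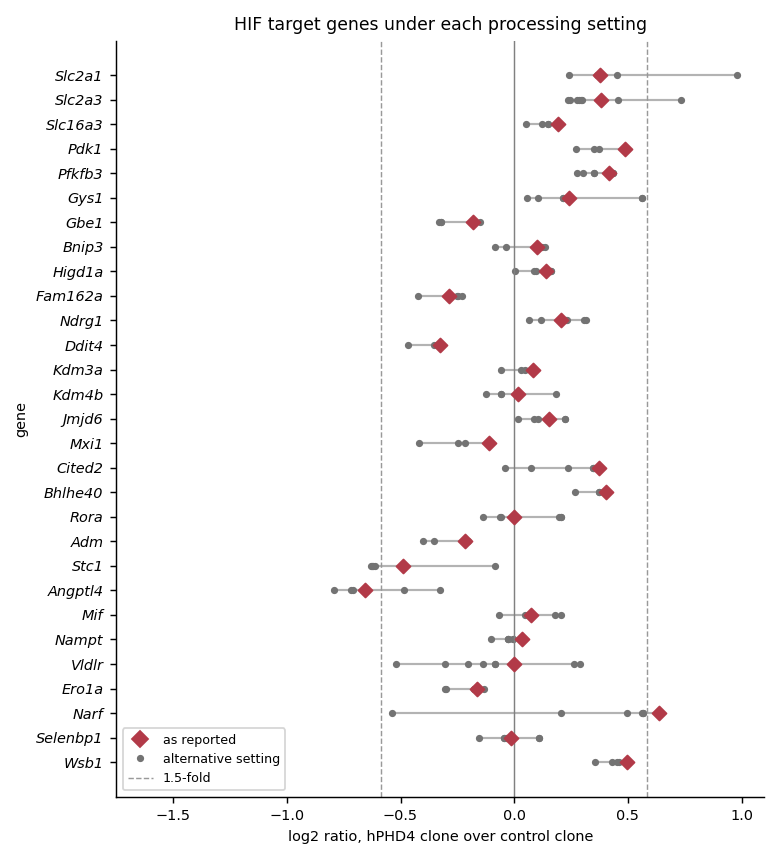
Log2 ratio (hPHD4 clone over control clone) of each of the 29 measured HIF targets as reported (red diamonds) and under up to 9 alternative settings (grey points, joined by a line), with dashed lines at 1.5-fold. In 19 of the 29 the sign was the same under every setting that gave a value, among them Pdk1, Pfkfb3, Slc2a1, Slc2a3 and Ddit4, and Narf spans 0.64 to −0.54. A target with a single probe set, such as Ddit4, cannot change where only the choice of probe sets does. The matching share over all measured genes is not given here.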

How the data were processed

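RNA of 2 LM8 clones, 1 array each, was biotin-labelled (5 µg total RNA) as the labels' protocols describe. The authors deposited a log2 signal for each probe set. MAS5 is the tool named in the submitters' processing notes, with no version or settings. The log base and scaling were read from the values: as powers of 2, both arrays had a mean of 500.2 after trimming 2% at each end. Detection calls were not used here.

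Probe sets annotated to 1 symbol alone were used. The floor was the 40th percentile of the non-control probe sets of each array, and a gene was the mean log2 ratio of its probe sets above the floor on both arrays, with no further scaling. A probe set above the floor on 1 array only was given as a bound against the floor of the other. Of 20380 probe sets with 1 symbol, 20351 were found in a gene table of assembly GRCm38.p6, used for chromosomes. Promoter windows came from RefSeq (GRCm38.p6).

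Members and lists were chosen with earlier results of these data known, and the grouping by function was made after the values were seen. All members are accounted for; those past 1.5-fold, with probe sets of opposite sign or with a bound were to be given in full, and of the other pathway lists those past 1.5-fold. Python 3.11.15, pandas 2.3.3 and statsmodels 0.14.6 were used, and the steps were tested on simulated data. The planned protein identities of paralogues were not computed. The closing section gives 9 alternatives for the floor, scaling, probe sets and map position, and a 2-fold threshold.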

Additional observations from a re-analysis of the deposited data

How the results depend on the processing

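Shifts of the targets' median were set beside the pooled SD between probe sets (0.35) over the square root of the number of targets. That yardstick leaves out the spread among targets. The targets' median log2 ratio of 0.08 moved by more than it only with median centring (−0.057), which moved all genes alike. Its distance from the median of all genes was 0.05 as reported and ranged from −0.01 with the floor at the 20th percentile to 0.15 with it at the 60th. The count of targets above 0 was 19 of 29 as reported (65.5%, against 53.6% of all genes). After median centring it was 13 of 29 (44.8%, against 38.2%). Over the alternatives the share of targets ran from 44.8% to 71.4%, the latter without _x_at and _s_at probe sets. The share of all genes ran from 36.9% with no filter, where genes tied at 0 cannot count, to 57.5% with the 20th-percentile floor. The count at least 1.5-fold higher, 1 as reported, was 0 with a lower (20th percentile) or higher (60th) floor, with no filter, after median centring, quantile normalization, loess correction or subtraction of chromosome medians and at 2-fold, and 3 (Slc2a1, Slc2a3, Narf) with the brightest probe set per gene. The share of all genes that much higher, 8.94% as reported, was then 16.4%, 4.71%, 4.87%, 5.11%, 6.66%, 6.63%, 7.56%, 1.89% (at 2-fold) and 9.51%, in the same order. The count at least 1.5-fold lower, also 1, was 2 with the floor at the 20th percentile (Bhlhe41, Angptl4) and in the 3 scalings (Stc1, Angptl4), 1 but a different gene (Stc1) after subtraction of chromosome medians, and 0 with the floor at the 60th, with no filter, without _x_at and _s_at probe sets and at 2-fold. The share of all genes that much lower, 5.22% as reported, was 6.64% with the 20th-percentile floor, 9.77%, 6.43% and 6.44% after median centring, quantile normalization and loess, 5.06% after subtraction of chromosome medians, and 4.58%, 3.06%, 5.47% and 0.98% in the settings with 0 targets. Narf was reversed, to −0.54, with the floor at the 20th percentile, where a dim probe set entered; that setting changes only which probe sets count. Of 255 single-gene values under alternatives, 249 moved by less than the SD between probe sets, 5 by more (Slc2a1 and Vldlr on the brightest probe set, at 0.98 and −0.52, Mxi1 without its chromosome median, at −0.42, Cited2 with the 20th-percentile floor, at −0.04, and Narf with no filter, at 0.20) and 1 was reversed. Part of the 249 was fixed in advance. Median centring moved every gene by −0.14, less than the smallest class SD of 0.28. A gene with a single probe set cannot change where only the choice of probe sets does. By sign alone, 19 of the 29 targets were the same under every setting that gave a value. No paired analysis was possible because each group has 1 array, and no replicate could be left out.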
